A study of Mus musculus with 21 samples.

Results

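LZtoDZ selected transitional cells are the 232 of 6619 sequenced lymph node cells that the authors' deposited annotation names LZtoDZ. The name sets them between the light zone (LZ) and the dark zone (DZ) of the germinal centre. They were taken by that annotation alone. The 232 cells came from all 6 mice of the study. They stood beside 3194 LZ, 2382 DZ, 522 preMem, 47 prePC and 242 PC cells, the other names in the annotation.

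The mice were immunized with 100 µg of NP-KLH, a hapten coupled to a carrier protein, in Sigma Adjuvant System under the skin at the tail base. A gavage of 5 mg tamoxifen, no earlier than 6 days after immunization, switched on eYFP through Cre-ERT2 in all of them, so every group carried the same label and the same treatment. Draining lymph nodes were taken on day 10, 16 or 22, from 2 mice a day, and live IgD-negative eYFP+ plasma cells (PC) and B cells were sorted. The PC and the non-PC fraction were loaded into separate wells of the 10x 5' v2 assay with antibody hashtags marking the mouse, so fraction and well cannot be told apart. The strain, the age and the gene that drives Cre are not given in the sources used here.

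In the light zone, germinal centre B cells take up antigen from follicular dendritic cells and present it to T follicular helper cells. Cells that receive this help transiently express Myc, a transcription factor that drives ribosome production, metabolism and entry into the cell cycle, and then return to the dark zone, where they divide and mutate their receptors. Ccnd2 encodes cyclin D2, which starts the passage from G1 to S phase. Srm encodes spermidine synthase of the polyamine pathway, Tnfrsf8 the receptor CD30, and Mif a cytokine released by many growing cells.

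The deposited counts are UMIs, that is, tagged RNA molecules counted once each. LZtoDZ cells held a median of 22505 UMIs and 3982 genes, against 7784.5 UMIs in LZ cells, 9310 in DZ cells and 18722.5 in PC. Within mice the median of LZtoDZ cells was 2.81 ± 0.48 (SD, n = 6) times that of LZ cells, higher in 6 of 6 mice, and 2.47 ± 0.30 times among cells called S phase. The part of this depth gap in the results below was not tested, and levels are therefore also given for thinned cells (each cell drawn down to 4727 UMIs), for cells of 10000 to 25000 UMIs and for cells of 1 called phase. NK markers were at 0 in all 6 LZtoDZ sums (5 of 5 genes), as were Cd3e, Cd3g, Cd4, Cd8a and Trbc2 among 10 T cell markers and Csf1r, C1qa and C1qb among 8 myeloid markers. The summed T cell list stood at 49.8 to 104 CPM in LZtoDZ, 98.1 to 146 in LZ and 41.3 to 76.6 in DZ, and the myeloid list at 3.27 to 38.4, 9.35 to 126 and 6.36 to 31.6. Of the 6619 cells, 6 carried a barcode also seen in the other well, 1 of them LZtoDZ.

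Each mouse was 1 replicate: raw counts of its cells were summed and given as CPM, a gene's share of the sum after TMM adjustment of its size. State values are means over the 6 mice (4 for prePC, sums under 5 cells being left out). Since the states were named from expression of these same cells, all comparisons between LZtoDZ and other states are descriptions with no test, and "above in every mouse" is a count. Among 5187 genes at 20 CPM or more in LZtoDZ, LZ or DZ, LZtoDZ sums were above LZ in every mouse for 29.1% and below it for 30.6%. Against DZ the shares were 28.7% above and 32.5% below. For 24.7% they were above both states in every mouse, for 25.2% below both, and 29.5% had their highest mean of all 6 states in LZtoDZ. Counts of genes between states over all cells are to be read against these shares. Among S phase cells 16.9% of the 5187 genes were above both and 20.8% below both in every mouse. Among G2M cells (5 mice) the shares were 14.5% and 16.6%. In cells of 10000 to 25000 UMIs they were 11.9% and 20.5%, and in thinned cells 11.1% and 20.6%. Counts in those cell sets are to be read against their own shares.

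All 5 markers were higher in LZtoDZ than in LZ and DZ cells in every mouse, but they did not share 1 order across states. Myc was at 103 CPM in the lowest mouse, 145 in the median and 167 in the highest, with a mean of 137 ± 25.9 (SD, n = 6). Its LZ sums ran from 30.1 to 49.9 and its DZ sums from 14.0 to 18.2, so no mouse overlapped. Its mean was 59.5 in prePC and 25.1 in PC, which left LZtoDZ highest. Tnfrsf8 was counted in fewer UMIs, at 8.11, 18.4 and 24.0 CPM (lowest, median, highest) in LZtoDZ against a mean of 0.99 in LZ, 0.20 in DZ and 1.64 in prePC, the next state. It rested on 97 UMIs in 49 cells.

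Mif was at 1783, 2033 and 2114 CPM in the lowest, median and highest mouse, 3.42-fold the LZ mean of 589 and 1.93-fold the PC mean of 1042. Srm and Ccnd2 behaved otherwise, since PC carried as much or more. Srm had a mean of 346 ± 41.7 in LZtoDZ and 364 in PC, against 54.5 in LZ, and its LZtoDZ range (270 to 380) overlapped that of PC (301 to 423). Ccnd2 stood at 47.3, 73.0 and 173 CPM in LZtoDZ, 2.54 to 9.15 in LZ and 0.20 to 1.27 in DZ, but at a mean of 312 in PC.

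**Figure D1:**
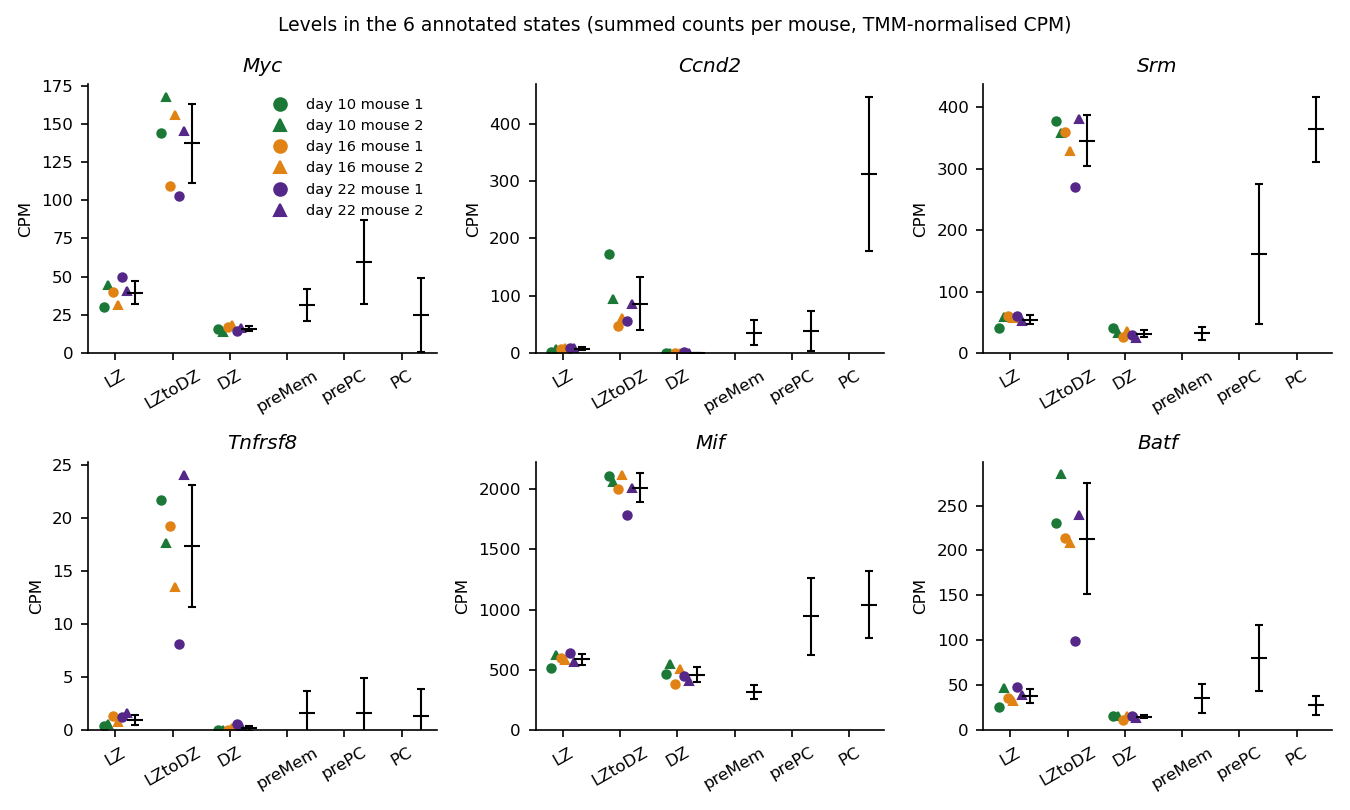
TMM-normalised CPM (y axis) of the 5 markers and Batf in the 6 annotated states (x axis); coloured points are single mice for LZ, LZtoDZ and DZ, and black bars the mean ± SD over mice for each state. LZtoDZ points of Myc (103 to 167 CPM), Tnfrsf8, Mif and Batf lie above every LZ and DZ point, while PC reach 312 CPM in Ccnd2 and 364 in Srm.

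Cell by cell the markers were not uniform. Myc UMIs were found in 67.7% of LZtoDZ cells, Ccnd2 in 47.8%, Srm in 97.4% and Tnfrsf8 in 21.1%, and Mif in 100%. In DZ cells, a state with little Myc, the shares of the first 4 were 13.2%, 0.588%, 23.9% and 0.294% at a median of 9310 UMIs. Mif was also found in 93.2% of DZ and 91.8% of LZ cells. After thinning to equal depth, Myc was seen in 37.7% of LZtoDZ, 11.1% of LZ and 6.57% of DZ cells, and Srm in 82.0%, 19.3% and 12.2%. Ccnd2 was then in 24.1% of LZtoDZ, 2.18% of LZ and 52.5% of PC cells. Tnfrsf8 was in 6.58% of LZtoDZ and 0.519% of LZ cells. UMIs of all 5 markers were present in 39 of the 232 cells and of 4 in 55. A further 86 cells had 3 of them, 50 had 2, and 2 had a single marker. Of the 3194 LZ cells 4 held all 5, and of the 242 PC cells 4 held all 5 and 135 held 3. After thinning to equal depth 4.39% of LZtoDZ cells held all 5, 0.0346% of LZ and 0% of PC cells, and 48.7% of LZtoDZ cells held 2.

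The authors also deposited module scores per cell. The activation score of LZtoDZ cells had a median of 0.662, against 0.320 in LZ and 0.330 in DZ, and its lowest value was 0.580, just above the highest LZ and DZ values (0.579 for each). At or above that lowest value were also 6 prePC and 11 PC cells, up to 0.782. The rule behind the state names is not given in the sources used here, but such edges were present in other scores too. The lowest memory score of preMem cells was 0.78004 and the highest of LZ cells 0.77990. The lowest plasma cell score of prePC cells was 0.2503 and the highest of DZ cells 0.2495. The naming may have used these scores, which was not tested. The separation by the activation score is thus a description and nothing is read from it. Levels of genes counted in that score share this limit. On the deposited continuum from LZ to DZ, LZtoDZ cells had a median of 0.309, below the medians of both LZ (0.408) and DZ (0.591). The cells were spread from 0.0760 to 0.661, with the upper quartile at 0.428. Most of them thus lay below the LZ median, and only a smaller part between the medians of LZ and DZ. In the deposited clustering 219 of the 232 cells were in cluster 5, which also held 64 LZ, 16 DZ and 6 prePC cells.

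Among the gene lists other than the markers, ribosome biogenesis had the largest median rise over LZ and DZ. The lists were chosen with earlier results of these data known, so this rank is a description. Of 36 genes on a list of ribosome biogenesis factors 35 reached 20 CPM, and all 35 were above both LZ and DZ in every mouse and highest in LZtoDZ of the 6 states. Their median log2 difference was 1.44 over LZ and 1.72 over DZ on the log2(CPM + 1) scale, against −0.04 and −0.08 over all 5187 genes. Npm1, a nucleolar chaperone of ribosome export, stood at 3175, 3697 and 4066 CPM in the lowest, median and highest mouse and at 1142 to 1220 in LZ. Gnl3, which encodes nucleostemin, was at 181 ± 23.7 CPM against 34.1 in LZ and 21.1 in DZ (SD, n = 6). Nop16, a factor of the large subunit, varied little between mice, at 215 ± 8.87 CPM. Among S phase cells the list's median over LZ was 1.26, among thinned cells 1.33 and among cells of 10000 to 25000 UMIs 1.29, with 35, 31 and 35 of 35 genes above both states in every mouse.

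Growth metabolism followed the same direction to a smaller degree. Of 22 genes of polyamine and nucleotide synthesis 21 were above LZ and DZ in every mouse, with a median log2 difference of 1.21 over LZ. Shmt1, the cytosolic serine hydroxymethyltransferase that feeds thymidylate synthesis, was at 99.6, 121 and 180 CPM (lowest, median, highest) against a mean of 21.9 in LZ and 12.3 in DZ. Odc1, ornithine decarboxylase, was at 66.0 ± 7.15 CPM in LZtoDZ and 66.1 in PC, against 28.0 in LZ. All 13 chaperone genes at 20 CPM were above both states in every mouse, among them Hspd1, the mitochondrial chaperonin, at 827 ± 108 CPM against 196 in LZ. For mitochondrial growth 10 of 12 genes were above both, including the matrix protein gene C1qbp at 812 ± 64.8 CPM against 201. For translation factors the count was 14 of 16, with Eif5a at 2393 ± 42.9 CPM against 1039. In thinned cells the counts were 8 of 12 for mitochondrial growth and 11 of 16 for translation factors. Cells of 10000 to 25000 UMIs gave 10 of 12 and 10 of 16. In cells of 10000 to 25000 UMIs the median over LZ of the polyamine and nucleotide list was 0.69 in place of 1.21, with 15 of 22 genes above both states in every mouse, and all 13 chaperone genes stayed above both (median 0.73).

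Glycolysis and amino acid supply differed less. Of 12 glycolytic genes 10 were above both states in every mouse, with a median of 0.58 over LZ, and Ldha, lactate dehydrogenase A, was at 1654 ± 80.1 CPM against 716. Of 15 genes for amino acid uptake and tRNA charging 10 were above both and 1 below both. In thinned cells 7 of 12 glycolytic genes and 5 of 15 amino acid genes were above both in every mouse. Cells of 10000 to 25000 UMIs gave 7 of 12 and 8 of 15. Slc7a5, a light chain of the leucine transporter, had 23.8 ± 6.78 CPM in LZtoDZ and 5.66 in LZ. Its partner Slc3a2 had 85.9 ± 28.1 CPM against 63.1 in LZ, above in 5 of 6 mice, and more in PC (170).

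**Figure D2:**
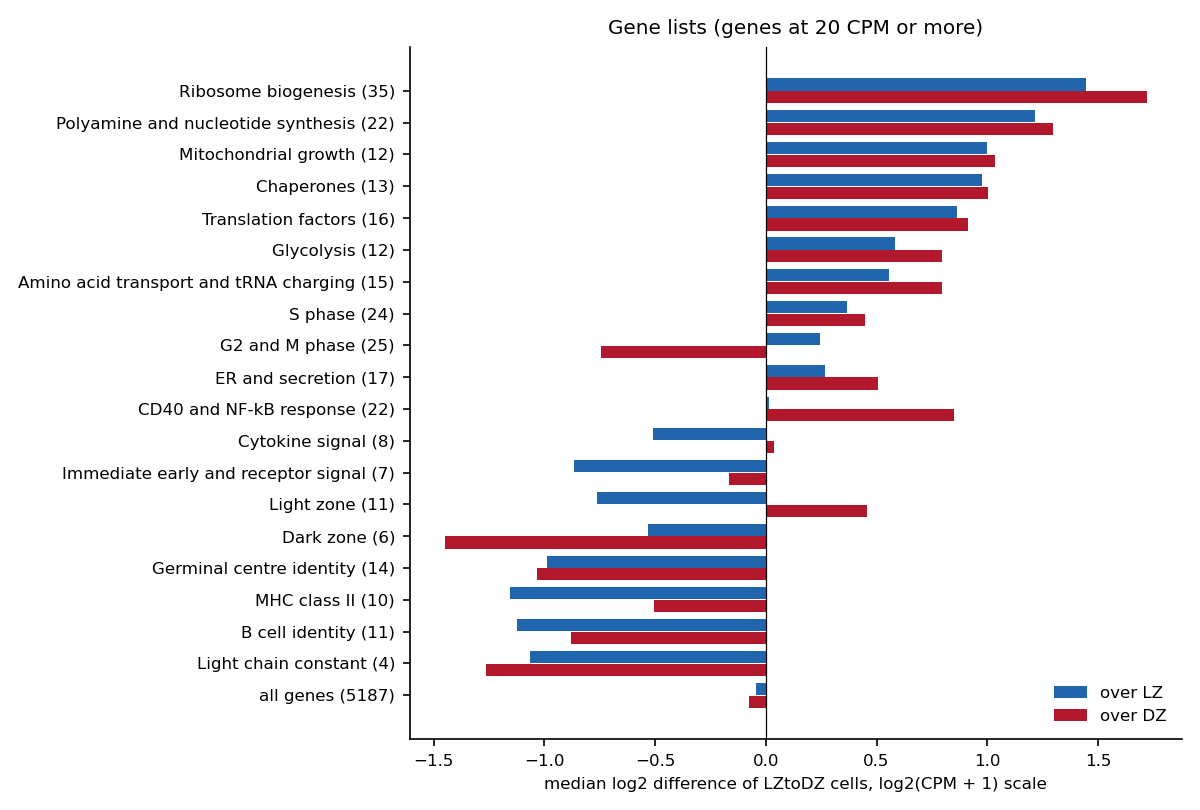
Median log2 difference (x axis, log2(CPM + 1) scale) of LZtoDZ cells over LZ (blue) and over DZ (red) for 19 gene lists and all genes (y axis), with the number of genes at 20 CPM or more in brackets. Ribosome biogenesis is at 1.44 and 1.72, all genes are near 0, and MHC class II, B cell identity and light chain genes lie below it in both comparisons.

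By the naming rule, 25 genes had the largest ratio of LZtoDZ to the next highest state. These were Naf1, Bag2, Tfap4, Slc19a1, Cluh, Pus7, Shmt1, Cdk6, Chchd4, Fscn1, Grwd1, Bcl2a1d, Wdr4, Pusl1, Rrp9, Smyd2, Mrps6, Ydjc, Gar1, Nop16, Mdn1, Rrp1b, Batf, Zmynd19 and Rsl1d1. Their ratios ran from 3.43 for Naf1, a factor for assembly of H/ACA ribonucleoproteins, to 2.62 for Rsl1d1, a nucleolar protein gene. Only 5 of the 25 were on the ribosome biogenesis list, namely Grwd1, Rrp9, Gar1, Nop16 and Rrp1b. In each of the 6 alternative cell sets and scalings, and without each mouse in turn, the mean of all 25 stayed above LZ and DZ. Fewer stayed highest of the states and above LZ and DZ in every mouse. These were 14 of the 25 in S phase cells, 18 in G2M cells, 21 in cells of 10000 to 25000 UMIs and 23 in thinned cells. Ranked anew in these 4 sets, 4, 6, 8 and 13 of them were again among the first 25.

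Transcription factors among the 25 were Tfap4 and Batf. Tfap4, a known Myc target that prolongs the growth programme in activated B cells, was at 26.2, 30.6 and 36.0 CPM in the lowest, median and highest mouse, and at 4.35 to 10.6 in LZ. Batf, an AP-1 family factor used in class switching, was at 99.6, 223 and 285 CPM against 26.4 to 47.7 in LZ and 12.0 to 16.1 in DZ. The lowest of these Batf values was day 22 mouse 1, still above every LZ sum. Cdk6, a kinase partner of D cyclins, was at 29.4 ± 9.30 CPM against 8.66 in LZ and 9.39 in DZ, whereas Cdk4, its close relative, was at 423 ± 29.6 against 251 and 219.

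Smyd2, a lysine methyltransferase gene, was the most raised of the 25 against LZ: 27.3, 44.1 and 57.7 CPM (lowest, median, highest) against a mean of 3.45, a log2 difference of 3.26 ± 0.38 (SD, n = 6). Slc19a1, the reduced folate carrier, was at 30.6 ± 6.71 CPM against 4.42. Fscn1, which bundles actin, varied widely by mouse, from 29.5 to 148 CPM, and is taken up with the days below. Bcl2a1d, a survival gene of the BCL2 family, was at 110 ± 28.5 CPM against 37.8 in LZ and 16.1 in DZ. Its reads may be shared with near-identical Bcl2a1 copies, so its level is uncertain.

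**Figure D3:**
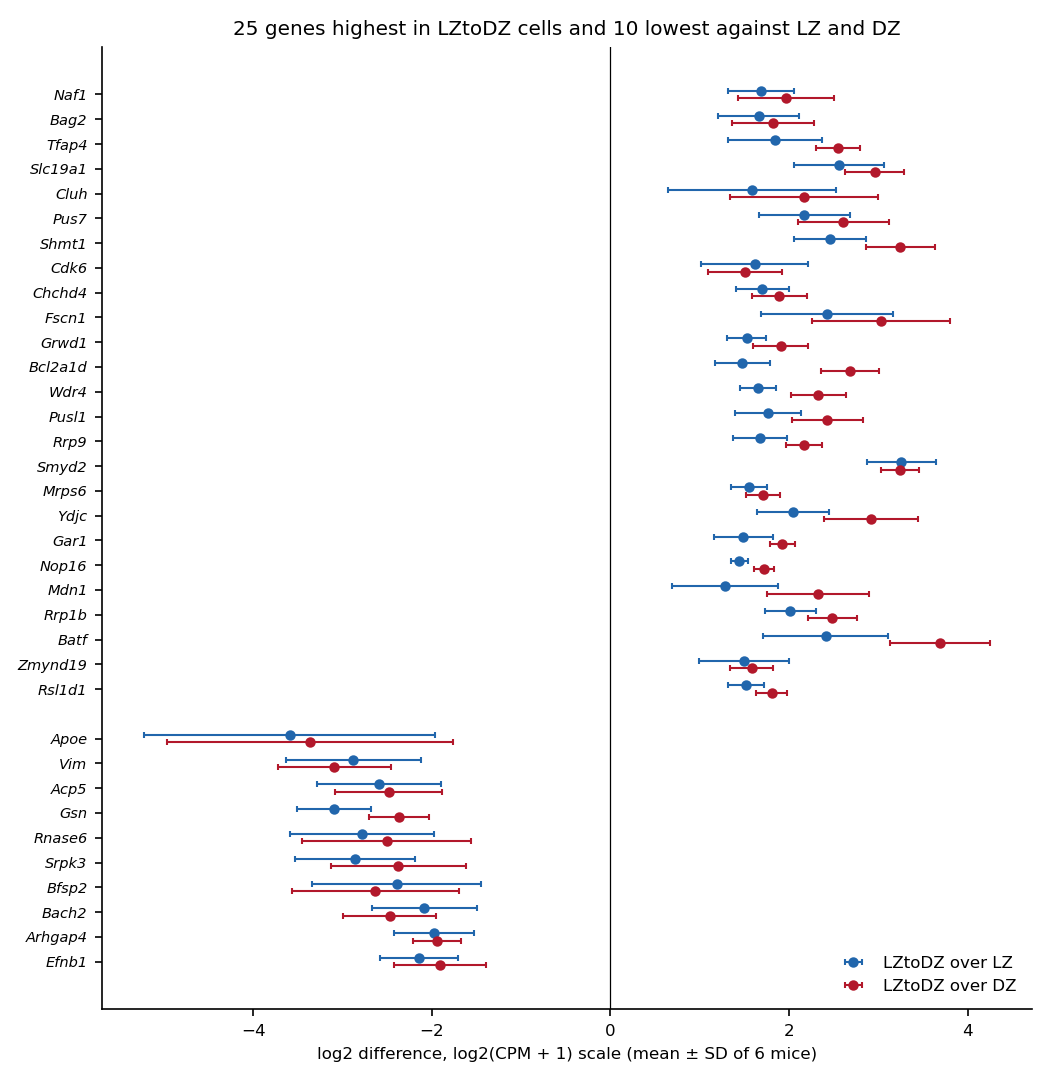
Log2 difference of LZtoDZ cells over LZ (blue) and DZ (red) on the log2(CPM + 1) scale (x axis; points are means and bars SD over 6 mice) for the 25 genes with the largest ratio to the next state and the 10 with the lowest ratio to LZ and DZ (y axis). Smyd2 is at 3.26 over LZ, and Apoe is at −3.59 with the widest bar.

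Promoter sequence was set beside these levels for 1 motif, the E-box CACGTG that Myc with Max is known to bind, searched as written, which reads the same on both strands. RefSeq windows of GRCm38.p6 from 250 bases before to 50 after the start held it in 8.09% of 27025 genes. The share was 12.7% of the 3950 genes matched among those at 20 CPM, and 18.0% of the 776 matched among the 967 genes of 20 CPM in LZtoDZ that were above LZ and DZ in every mouse and highest there. It was 22.6% of 31 matched ribosome biogenesis genes, 6 of the 22 matched among the 25, and 0 of the 10 lowest genes. The motif GGGCGG, searched on both strands, was in 70.1% of genes at 20 CPM and 70.5% of the 776. It was in 67.7% of the 31 ribosome biogenesis genes and 16 of the 22, but in 3 of the 10 lowest genes. Both are descriptions of letters in a window and not of binding.

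The motif lay before the start in Tnfrsf8, Cluh and Cdk6 and after it in Pus7, Grwd1, Pusl1 and Mdn1. Of the 5 markers only Tnfrsf8 and Mif were matched, and Mif did not hold the motif. The 250 bases before the start are given for the marker Tnfrsf8 and for Cluh, which binds mRNAs of mitochondrial proteins, to show the motif (capitals) in its setting. They run 5′ to 3′ on the gene's strand, at chr4:145315165-145315414 (minus) and chr11:74649254-74649503 (plus), with the motif starting 119 and 19 bases before the start.
Tnfrsf8: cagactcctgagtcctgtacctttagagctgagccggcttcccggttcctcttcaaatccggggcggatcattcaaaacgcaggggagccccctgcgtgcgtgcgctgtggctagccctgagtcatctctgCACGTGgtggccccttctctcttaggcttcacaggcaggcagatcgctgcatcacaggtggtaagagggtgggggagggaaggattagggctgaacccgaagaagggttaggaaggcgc
Cluh: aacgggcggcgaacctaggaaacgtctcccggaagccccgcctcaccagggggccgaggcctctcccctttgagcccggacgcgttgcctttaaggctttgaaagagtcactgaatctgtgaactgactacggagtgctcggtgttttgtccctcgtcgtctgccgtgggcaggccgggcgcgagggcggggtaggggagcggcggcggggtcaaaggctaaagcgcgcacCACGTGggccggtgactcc
Tnfrsf8 itself had 17.3 ± 5.77 CPM in LZtoDZ and Cluh 20.1 ± 10.0 (SD, n = 6), against 0.99 and 5.41 in LZ.

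The Myc network itself did not move as a block. Of its 7 genes at 20 CPM, Myc and Tfap4 were above both states in every mouse and 3 were below both. Max, the obligate partner of Myc, was at 81.8 ± 4.02 CPM against 102 in both LZ and DZ. Mxd4, which pairs with Max in place of Myc, was at 0, 3.06 and 7.39 CPM (lowest, median, highest) in LZtoDZ and at 24.4 to 31.5 in LZ, so the groups did not overlap.

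The response to T cell help was mixed. Of 22 genes of a CD40 and NF-kB list 15 were above DZ in every mouse, but 3 were above LZ and 8 below it. The median against LZ was 0.01 over all cells and 0.74 among cells of 10000 to 25000 UMIs. It was 0.15 in thinned cells, −0.14 in S phase cells and 0.36 in G2M cells. Nfkbia, the inhibitor that NF-kB induces, was at 315 ± 53.5 CPM against 262 in LZ and 84.6 in DZ, and Cd40 at 105 ± 13.4 against 102 and 36.8. Cd83, a light zone marker, was at 198, 227 and 364 CPM (lowest, median, highest), below the LZ range of 426 to 499 and above the DZ range of 90.2 to 115. Its log2 difference from LZ was −0.92 ± 0.42 over all cells but 0.19 ± 0.39 among cells of 10000 to 25000 UMIs, and −0.86 ± 0.56 in thinned cells. The light zone list had a median of −0.76 over LZ in all cells, −0.89 in S phase cells, −0.59 in thinned cells and 0.10 in that depth window. Thus both were below LZ at equal depth by thinning and not in the window, which also changes which cells are compared. Of 7 immediate early and receptor signal genes none was above LZ in every mouse, and 5 were below it, Egr1 at 36.6 ± 20.3 CPM against 82.1. Of the cytokine list Batf was above both states in every mouse.

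Genes of germinal centre identity were low. Bcl6, the repressor that maintains the germinal centre state, was at 21.5 ± 6.63 CPM against 56.7 and 51.4. Of 14 germinal centre identity genes 10 were below both LZ and DZ in every mouse, and 0 above both, with a median of −0.99 over LZ, −1.02 among S phase cells and −1.34 in the depth window. Of 6 dark zone genes 2 were below both states in every mouse and 1 above both, beside 25.2% and 24.7% of all genes, with medians of −0.53 over LZ and −1.45 over DZ. Cxcr4, the chemokine receptor of the dark zone, was at 0, 12.1 and 18.2 CPM, a range that covers that of LZ (11.5 to 17.9) and lies below that of DZ (24.9 to 36.9). Ung, the uracil glycosylase that sits on both the dark zone and the S phase list, was the gene above both, at 119 ± 10.9 CPM against 54.6 and 36.4.

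Antigen presentation and B cell genes were also lower. Of 10 MHC class II genes 9 were below both states in every mouse, Cd74, the invariant chain, at 10468 ± 677 CPM against 25361 in LZ and 16359 in DZ. Of 11 B cell identity genes 10 were, Cd79a of the B cell receptor at 1062 ± 117 against 2882 and 2515. All 4 light chain constant genes were, Igkc at 699 ± 171 against 1147 and 1248. The medians of these 3 lists stayed below LZ in S phase cells, in thinned cells and in the depth window. For MHC class II, however, the genes below both states fell to 4 of 10 in the depth window and 4 of 10 in G2M cells, and the median over LZ went from −1.16 to −0.69 and −0.78. CPM are shares of each cell's RNA, and cells of this state held more UMIs, so a lower CPM here does not by itself show fewer molecules per cell.

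The 10 genes lowest against LZ and DZ were Apoe, Vim, Acp5, Gsn, Rnase6, Srpk3, Bfsp2, Bach2, Arhgap4 and Efnb1. Bach2, a repressor that holds back plasma cell differentiation, was at 8.85, 22.7 and 28.1 CPM (lowest, median, highest) against 74.6 to 93.6 in LZ and 99.1 to 124 in DZ. Apoe, apolipoprotein E, was at 34.3 CPM in the median mouse and 79.8 in the highest, against 289 to 392 in LZ. Vim, the intermediate filament vimentin, was at 21.1 ± 9.36 against 152 and 178, and at 596 in preMem and 699 in prePC. All 10 means stayed below LZ and DZ in the alternative cell sets, in both scalings and without each mouse in turn.

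Of 6 plasma cell identity genes at 20 CPM, 1 was above both LZ and DZ in every mouse and 2 were below both, with a median of −0.06 over LZ, close to that of all genes (−0.04). Prdm1, the factor that drives the plasma cell programme, and Tnfrsf17 had no UMI in any LZtoDZ cell, which allows a share of up to 1.29% of cells with a UMI (counting error only). For Prdm1 the mean was 1.04 CPM in LZ and 72.9 in PC. Irf4 was at 12.5 ± 4.99 CPM, above LZ (4.47) and DZ (2.01) in every mouse, and at 197 in PC. Jchain was at 776 ± 121 CPM, below DZ (1477) in every mouse, against 22497 in PC. The ER and secretion list had 8 of 17 genes above both germinal centre states, 3 below both, and 0 highest in LZtoDZ.

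Most cells were called S or G2M in the deposited table: 158 of 232 cells were called S, 57 G2M and 17 G1. Over mice S took 66.8 ± 7.29% (54.5 to 76.2; SD, n = 6), against 32.6 ± 2.23% in LZ and 26.1 ± 1.89% in DZ, and G2M 22.1 ± 8.50% against 13.6 ± 3.29% and 37.0 ± 3.91%. Every LZtoDZ mouse was above every LZ and DZ mouse in S. The G1 share was 36.4% in day 10 mouse 1, which had 11 cells, and 0 to 9.26% in the others. Phase was called from expression, so these shares are descriptions.

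In cells called S, S phase genes were not above those of LZ and DZ cells called S. Over all cells 17 of 24 S phase genes were above both states in every mouse with a median of 0.37 over LZ. Among cells called S the count was 0 of 24 and the median −0.23. Mcm5, a subunit of the replicative helicase, was at 302 ± 38.2 CPM in S phase LZtoDZ cells, 343 in S phase LZ and 363 in S phase DZ cells. The markers kept their difference: among S phase cells Myc was at 110 ± 54.5 CPM against 38.3 in LZ, and Srm at 346 ± 57.2 against 73.1, above in 6 of 6 mice. Of 25 G2 and M phase genes 19 were below DZ in every mouse over all cells, while among S phase cells 3 were below both states and 6 above both.

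Within LZtoDZ, S and G2M cells of the 5 mice with enough of both differed in the genes of those phases, from which phases are called. Of 24 S phase genes 21 were higher in S in every mouse, with a median log2 difference of 0.94, and of 25 G2 and M phase genes 22 were lower (−0.90). Over all genes 590 of 4997 were higher in S in every mouse and 257 lower, with a median of 0.10. Growth lists were uneven: 1 of 36 ribosome biogenesis genes (median 0.04), 6 of 23 genes of polyamine and nucleotide synthesis (0.18) and 5 of 12 glycolytic genes (0.22) were higher in S in every mouse. Myc was at 135 ± 51.0 CPM in S and 168 ± 35.3 in G2M cells, higher in S in 2 of 5 mice. These levels were scaled among LZtoDZ sums alone and so differ from those among S phase cells above.

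**Figure D4:**
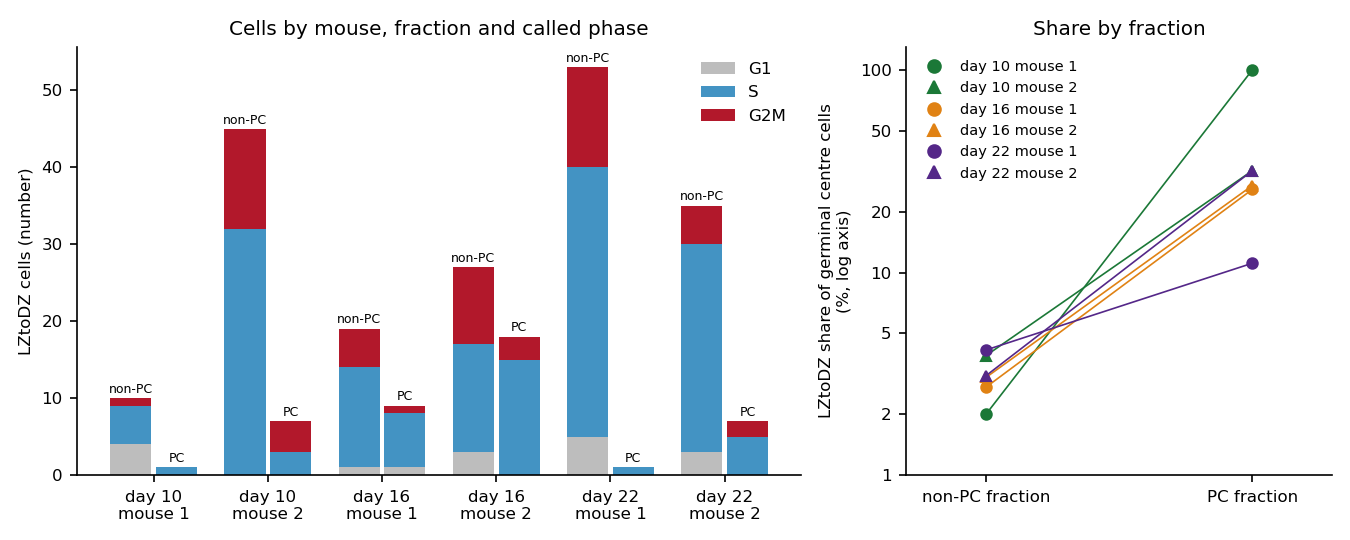
Left, LZtoDZ cells (number, y axis) by called phase in each mouse and sorted fraction; right, LZtoDZ cells as a percentage of germinal centre cells on a log axis, with lines joining the fractions of a mouse. S phase fills most bars, and the share is higher in the PC fraction in all 6 mice, where day 10 mouse 1 rests on 1 cell.

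Of the 232 cells 189 came from the non-PC and 43 from the PC fraction. As a share of germinal centre cells (LZ, DZ and LZtoDZ) they made up 2.00, 3.89, 2.72, 3.04, 4.15 and 3.10% of the non-PC fraction in day 10 mice 1 and 2, day 16 mice 1 and 2 and day 22 mice 1 and 2. In the PC fraction, in the same order, they made up 100% (1 of 1 cell), 31.8% (7 of 22), 25.7% (9 of 35), 26.9% (18 of 67), 11.1% (1 of 9) and 31.8% (7 of 22). The share was higher in the PC fraction in 6 of 6 mice, with means of 37.9 ± 31.4% and 3.15 ± 0.784% (SD) and no overlap. The 2-sided exact permutation test gave p = 0.031, the smallest that 6 pairs allow, and 0.25 after Benjamini-Hochberg adjustment over 8 tests of shares, so it did not pass. Without day 10 mouse 1 the mean difference was 22.1 percentage points in place of 34.7. As a share of all cells of the fraction, plasma cells included, it was 7.36 points (exact permutation p = 0.0938), and day 22 mouse 1 turned, with 1.92% in the PC and 3.99% in the non-PC fraction.

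By day the share over both fractions was 3.30% on day 10, 4.26% on day 16 and 3.92% on day 22 (means of 2 mice). The exact permutation test over days gave p = 0.733 (adjusted 0.933), in a design where 0.0667 is the smallest p. Shares of phases did not pass by fraction (adjusted exact p = 0.5 for G1, 0.667 for S, 0.933 for G2M) or by day (0.933 for each).

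The fraction was a sort label that did not name the state, so gene levels were tested between fractions, within the 4 mice with 5 or more cells in each (day 10 mouse 2, both day 16 mice and day 22 mouse 2). With the mouse as a block, edgeR called 51 of 4323 genes, 1.18%, at an adjusted p under 0.05, and 455 had an unadjusted p under 0.05. Of these 35 were higher in the PC fraction (0.81%) and 16 lower (0.37%). The count varied with the mice and cells used: it was 7 without day 16 mouse 1 and 6 without day 16 mouse 2, 11 by DESeq2 and 2 in thinned cells, of which Gclm was 1. None of the markers tested was called (Myc −0.36, Ccnd2 0.18, Srm −0.13 and Mif 0.24 on the log2 scale, Mif at an adjusted edgeR p of 0.165), and Tnfrsf8 did not pass the filter on low counts. All levels in the following paragraphs on fractions are CPM of that fit.

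Gclm, a subunit of the enzyme that makes glutathione, was at 760, 761, 776 and 815 CPM in the non-PC fraction and 1531, 1488, 1517 and 1532 in the PC fraction of the same mice. The groups did not overlap and the values within each were close. It rose by 0.96 ± 0.09 on the log2 scale (SE, edgeR adjusted p = 3.63e-07) and kept its call in every alternative run. Yam1 went from 1167, 1207, 1440 and 1319 to 2999, 3348, 2264 and 3275 CPM, a rise of 1.19 ± 0.10 (edgeR adjusted p = 2.62e-07). Nme2, a nucleoside diphosphate kinase, rose from a mean of 549 to 885 CPM (0.68 ± 0.11). The calls of Yam1 and Nme2 were lost in thinned cells (edgeR adjusted p = 0.0694 and 0.633). A further 20 of the 35 were genes of ribosomal proteins, 25.3% of the 79 tested, with rises between 0.25 for Rps10 and 0.43 for Rps14, and the pseudogene Rpl13-ps3, whose reads may belong to such a gene, rose by 1.18. As thinned cells gave 2 calls in all, Gclm among them, at most 1 of these 20 kept its call there.

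The eYFP transcript fell in the PC fraction, from 263, 252, 269 and 225 to 62.7, 64.2, 75.1 and 145 CPM, a fall of −1.65 ± 0.23 on the log2 scale (edgeR adjusted p = 2.22e-04). Every PC value lay below every non-PC value. Il4i1, an enzyme induced by IL-4 and CD40 signals, fell from 112, 213, 176 and 214 to 62.7, 52.5, 57.6 and 57.8 CPM (−1.57 ± 0.24, edgeR adjusted p = 0.00106). Dusp2, a phosphatase that switches off MAP kinases, fell from 186, 153, 202 and 202 to 88.8, 87.5, 80.1 and 38.5 CPM (−1.28 ± 0.23, edgeR adjusted p = 0.00564). Cd86, the costimulatory ligand read by T cells, fell from a mean of 61.8 to 16.5 CPM (−1.60 ± 0.37). The calls of Il4i1, Dusp2 and eYFP were lost without day 16 mouse 2 (edgeR adjusted p = 0.0925, 0.212 and 0.0877), and those of Il4i1 and Dusp2 also without day 16 mouse 1 (0.0589 and 0.0517). In thinned cells eYFP and Il4i1 were not called either (0.0988 for each).

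The remaining falls named by the rule were Pxk (−2.12), Sephs2 (−1.64), Hmgcs1 of sterol synthesis (−1.41) and Slfn2 (−1.36), and the remaining rises Glipr1 (1.34), Ywhaq (0.83), Hist1h2ap (0.73), Chchd2 (0.44) and Cox7c (0.43). By list, the CD40 and NF-kB genes had 2 of 21 called lower and a median log2 difference of −0.47, beside 0.00 over all genes tested. The light zone list had 1 of 10 lower (median −0.51), and MHC class II 1 of 10 (−0.30). Of 34 ribosome biogenesis genes edgeR called 0 (1 at an unadjusted p under 0.05), with a median of −0.03. Of 6 plasma cell identity genes it called 0 (0 unadjusted; median 0.14), Jchain at 0.13. Of 6 cytokine genes it called 0 (3 unadjusted), and all 6 had values below 0 (median −0.71).

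In LZ and DZ cells of the same mice edgeR called 182 of 5178 genes between fractions, 38 of them also called with the same sign in LZtoDZ. Of the 51 genes called in LZtoDZ, 48 had the same sign there and 38 were called with that sign, among them Gclm (0.95) and eYFP (−1.68). Il4i1 was at 0.14 and Dusp2 at −0.35 there, neither called. The difference between the states was itself tested and called for 3 of 5178 genes, 0.0579%, all immunoglobulin variable region genes, while 303 had an unadjusted edgeR p under 0.05. None of the 51 was among them, and 11 had an unadjusted p under 0.05 (edgeR adjusted p of the difference 0.457 for Il4i1 and 0.533 for Dusp2).

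Between days few genes differed. Over the 3 days edgeR called 13 of 6820 genes (0.191%, 266 at an unadjusted p under 0.05), 11 of them variable region genes of immunoglobulin and the others Rgs13 and Pkib. Day 22 against day 10 gave 12 calls (0.176%, 327 unadjusted), 7 higher (0.103%) and 5 lower (0.0733%), of which 8 were variable region genes. Day 16 against day 10 gave 7 (0.103%, 228 unadjusted) and day 22 against day 16 gave 5 (0.0733%, 279 unadjusted). The contrasts share mice and are not independent. Levels of LZtoDZ cells by day are CPM of this fit, scaled among LZtoDZ sums alone. They therefore differ from the state levels above. LZ and DZ levels by day are on the scaling of the state levels, so only directions are set side by side. No marker was called in any of them: Myc stood at 160 and 180 CPM on day 10, 119 and 167 on day 16, and 110 and 157 on day 22, which overlap. Ccnd2 was at 192 and 102, 51.5 and 65.4, and 60.1 and 91.9 CPM, so day 10 lay above the rest (log2 −0.84 for day 22 against day 10, edgeR adjusted p = 0.859). With no filter on low counts, Ccnd2 was called in that contrast (edgeR adjusted p = 0.0306) and for day 16 against day 10 (1.46e-04), and its day 22 against day 10 difference was then other than in LZ cells (0.0116).

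Rgs13, which dampens chemokine receptor signals in germinal centre B cells, was at 44.0 and 65.7 CPM on day 10, 211 and 145 on day 16, and 251 and 269 on day 22, in sums over both fractions. The days did not overlap. It rose by 2.11 ± 0.22 on the log2 scale by day 22 (edgeR adjusted p = 2.53e-04) and by 1.55 by day 16 (0.00884). The rise was not particular to LZtoDZ cells. In LZ sums Rgs13 was at 140 and 177, 302 and 262, and 350 and 349 CPM on the 3 days. In DZ sums it was at 136 and 156, 249 and 223, and 310 and 337. The day 22 call was lost in thinned cells alone (edgeR adjusted p = 0.124, log2 1.77) and the day 16 call without day 10 mouse 2, day 16 mouse 1 or day 22 mouse 1 (0.221, 0.0724 and 0.0676). Hist1h1e, a linker histone gene, was at 160 and 211, 288 and 219, and 385 and 339 CPM, a rise of 0.91 from day 10 to day 22 (edgeR adjusted p = 0.0487).

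Fscn1 and Pkib went the other way. Fscn1 was at 164 and 98.2 CPM on day 10, 91.6 and 107 on day 16, and 31.6 and 49.5 on day 22, with day 22 below the other days (−1.61, edgeR adjusted p = 0.0457). Pkib, an inhibitor of protein kinase A, was at 84.0 and 94.8, 48.2 and 51.0, and 29.3 and 37.7 CPM, with no overlap between days (−1.47, edgeR adjusted p = 0.0151). Pkib was also lower on day 22 than on day 10 in LZ (25.1 and 21.7 CPM against 34.0 and 50.9). The same held in DZ (17.4 and 18.5 against 20.8 and 30.7). Hist1h1e lost its call without any 1 of the 4 mice of days 10 and 22 (edgeR adjusted p from 0.125 to 0.611). Fscn1 lost it without either day 10 mouse (0.116 and 0.0652) or day 22 mouse 1 (0.611), and Pkib without day 10 mouse 2 (0.461) or day 22 mouse 1 (0.268). In thinned cells none of the 3 was called (edgeR adjusted p = 0.977, 0.674 and 1.00), nor was Pkib by DESeq2 (0.129). Whether the day difference was other than in LZ cells was called for 4 of 8843 genes, 0.0452%, all variable region genes (410 unadjusted), and Rgs13 at a difference of 1.04 was not among them.

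**Figure D5:**
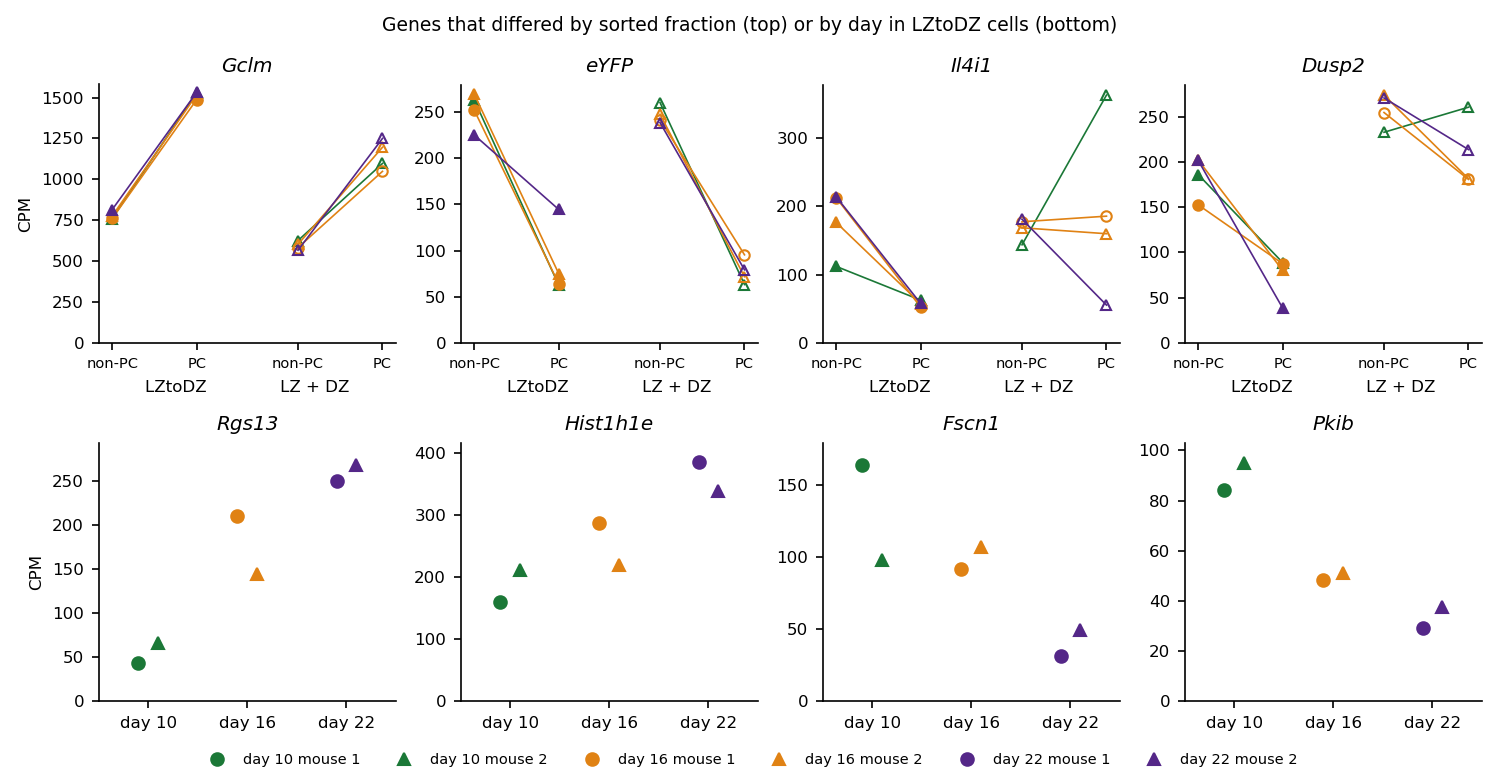
CPM (y axes, from 0) of single mice. Top, 4 genes by sorted fraction in LZtoDZ cells (filled) and in LZ plus DZ cells (open), lines joining the fractions of a mouse; bottom, 4 genes by day in LZtoDZ cells. Gclm rises and eYFP falls in both populations, while Il4i1 falls in LZtoDZ cells and not in every mouse of the others. Rgs13 climbs from 44.0 and 65.7 to 251 and 269 CPM, and it also rose in LZ and DZ cells, which are not drawn by day.

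The variable region calls were of different breadth. Igkv9-120, a kappa chain gene, was at 32.0 and 169 CPM on day 10, 228 and 15.3 on day 16, and 3804 and 1857 on day 22. On day 22, 22 of 54 and 12 of 42 LZtoDZ cells held 5 or more of its UMIs, against 0 of 11, 1 of 52, 2 of 28 and 0 of 45 in the mice of the earlier days. The highest cell gave 9.52% and 22.5% of its UMIs on day 22. The same gene was in 103 of 610 and 75 of 636 LZ cells and in 249 of 623 and 89 of 474 DZ cells of the day 22 mice at that level. Igkv9-124 is a near relative, and reads of the pair may be shared, so each level is uncertain. The heavy chain gene Ighv1-22 was in 19 of 54 and 7 of 42 LZtoDZ cells on day 22, and in 1 of 11 and 1 of 52 on day 10. Other calls came from few cells: a single cell gave 94.8% and 96.2% of the Igkv3-4 UMIs of the day 22 mice and 99.4% and 75.6% of the Igkv17-121 UMIs of the day 10 mice. Summed counts of such genes follow single cells and not the level of a state.

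A cell was given a heavy chain class where 1 constant gene had 3 or more UMIs and the majority of its constant gene UMIs. By this, 42.7% of LZtoDZ cells were Ighm, 26.3% Ighg1 and 10.8% Ighg2b, and 19.0% had no class. LZ cells gave 34.0, 25.4, 5.48 and 34.1%, and DZ cells 36.7, 21.7, 8.86 and 30.6%. Over mice the Ighm share of LZtoDZ was 41.4 ± 11.5% (SD, n = 6), which overlapped LZ at 35.2 ± 15.4%. The lower share without a class goes along with deeper cells, and its part was not tested.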

How the data were processed

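Single-cell 5' RNA libraries of 6 mice were analysed. The deposited matrix holds raw UMI counts of 14493 genes in 6619 cells. The deposited cell table gives module scores, phase, cluster, state, day, fraction and mouse, all made by the authors. Cell Ranger, Seurat and mm10/GRCm38 are named in the submitters' processing notes, with no version. The rule for the states and scores and the treatment of doublets are not given in the sources used here, and no cell was removed here. All 6619 cell sums equalled the deposited totals, from 1335 to 70744 UMIs.

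Counts were summed per mouse and group, leaving out sums under 5 cells. Tests used edgeR 4.0.16 in R 4.3.3 (TMM, filterByExpr, quasi-likelihood F test, Benjamini-Hochberg over all genes tested, threshold 0.05), with the mouse as block between fractions. Fits were tested on simulated counts. DESeq2 1.42.0 was an alternative. Members and lists were chosen with earlier results of these data known. State genes were named by ratio to the next highest state (25, at 20 CPM and above LZ and DZ in every mouse) or to the lower of LZ and DZ (10, at 50 CPM), without immunoglobulin, mitochondrial and predicted genes. Fraction and day genes were the 8 largest differences each way past the threshold with 20 CPM and 1 direction in every mouse. List members were taken by CPM. Some genes were added after their values were seen, such as Slc7a5, Slc3a2, Odc1, Egr1, Irf4, Cxcr4, Cdk4 and the variable region genes. Gene positions are from GENCODE M21. Whether a mouse number paired the fractions was not in doubt, since both came from 1 animal. P-values measure the spread between these mice only. Counting intervals cover counting error only.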

Additional observations from a re-analysis of the deposited data

Results flagged for a closer look

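In 46 sets of 6 mouse values that were checked for a mouse far from the others, 5 held 1, and chance alone gives about 1 in 20 sets. The lowest Mif level in LZtoDZ cells was 1783 CPM in day 22 mouse 1, with the others between 2001 and 2114. Day 10 mouse 1, which had 11 LZtoDZ cells, gave the other 4. It had the highest Gar1 level at 191 CPM (others 137 to 147), the highest Mdn1 level at 79.3 CPM (25.1 to 44.3), the highest G1 share at 36.4% (0 to 9.26%) and the highest share of germinal centre cells in the PC fraction at 100% (11.1 to 31.8%), the last from 1 cell.

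The difference between fractions was itself different in LZtoDZ from that in LZ plus DZ cells for Ighv6-3 by 7.48 on the log2 scale (edgeR adjusted p = 0.00706), Igkv4-72 by 8.80 (0.0359) and Igkv8-19 by 6.85 (0.0359). The day 22 against day 10 difference was other than in LZ cells for Igkv3-4 by 6.33 (edgeR adjusted p = 8.16e-06), Igkv4-77 by −4.64 (0.00447), Igkv6-32 by −4.94 (0.0191) and Ighv1-82 by −4.94 (0.0467). All 7 are variable region genes, whose counts in small sums come from few cells: 1 cell gave 96.2% of the Igkv6-32 UMIs and 100% of the 121 Ighv1-82 UMIs of day 10 mouse 2.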

How the results depend on the processing

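The number of genes above LZ and DZ in every mouse and highest in LZtoDZ was 967, and 496 in thinned cells, 407 in S phase cells, 577 in G2M cells and 512 in cells of 10000 to 25000 UMIs (the last added after the data were seen), with 460, 387, 492 and 463 of the 967 among them; without 1 mouse each it was 985 to 1048. Of single genes, Cd83 against LZ turned from −0.92 to 0.19 in that depth window. The share by fraction against all cells of the fraction differed by 7.36 points (exact permutation p = 0.0938), and without 1 mouse each by 22.1 to 40.3 (exact p = 0.0625, the smallest for 5 pairs).

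Calls between fractions (51) became 11 by DESeq2, 142 with no filter on low counts, 82 without immunoglobulin genes and 2 in thinned cells, and 6 to 57 without 1 mouse each (7 without day 16 mouse 1, 6 without day 16 mouse 2). With no replicate block they were 58, and same-numbered sums did not deviate together (r from −0.062 to −0.009). Calls of the difference between states by fraction (3) became 1 by DESeq2, 66 with no filter, 0 without immunoglobulin genes and 0 with no replicate block, and 0 to 9 without 1 mouse each (9 without day 10 mouse 2, 7 and 0 without day 16 mice 1 and 2, 1 without day 22 mouse 2).

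Calls over days (13) became 8 by DESeq2, 147 with no filter, 6 in thinned cells and 8 in the non-PC fraction, and 10 to 47 without 1 mouse each (33 without day 10 mouse 1, 47 and 31 without day 16 mice 1 and 2, 20 without day 22 mouse 2). For day 22 against day 10 (12) they were 104 with no filter, 5 in thinned cells and 6 in the non-PC fraction (5 to 33 without 1 mouse: 25 and 5 without day 10 mice 1 and 2, 29 and 33 without day 16 mice 1 and 2). For day 16 against day 10 (7) they were 87, 3 and 4, 2 without immunoglobulin genes (3 to 27 without 1 mouse: 27 and 3 without day 10 mice 1 and 2, 14 without day 16 mouse 1). For day 22 against day 16 (5) they were 74, 2 and 1, 3 without immunoglobulin genes and 1 by DESeq2 (5 to 15 without 1 mouse: 15 and 10 without day 16 mice 1 and 2, 9 without day 22 mouse 2). For the day difference by state (4) they were 98 with no filter, 20 in thinned cells, 11 without immunoglobulin genes, 2 by DESeq2 and 0 with no replicate block (4 to 37 without 1 mouse: 19 without day 10 mouse 1, 37 and 35 without day 16 mice 1 and 2, 19 and 14 without day 22 mice 1 and 2). The cause of these shifts was not tested. Sums of 10 or more cells left too few pairs to test fractions, and this was not run.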

Other observations

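A few other genes stood apart in LZtoDZ cells. Ighe, the constant region of IgE, was at 6.64, 8.53 and 19.2 CPM (lowest, median, highest mouse), above LZ (0.773 to 3.41) and DZ (0.727 to 4.02) in every mouse, while 0 of the 232 cells had it as their class and PC had a mean of 114. It rested on 66 UMIs in 35 cells. LZtoDZ sums held a larger share of PC-fraction cells than LZ and DZ sums, and the part of this in the Ighe level was not tested. Ccnd3, the cyclin D of dark zone division, was at 432 ± 61.5 CPM against 300 in LZ and 373 in DZ (SD, n = 6), above LZ in 6 and above DZ in 5 of 6 mice. Among cells called S, Ccnd3 was at 489 ± 91.1 CPM against 357 in LZ and 462 in DZ, above DZ in 3 of 6 mice. Among G2M cells it was at 358 ± 75.6 against 248 and 327, above DZ in 3 of 5. Mcl1, a survival gene, was at 48.9 ± 5.93 CPM, below LZ (72.4) and DZ (71.6) in every mouse, and Bcl2l1, which encodes BCL-xL, at 15.4 ± 7.17 against 8.48 and 5.13. Of 13 mitochondrially encoded genes 7 were below both states in every mouse (median −0.42 over LZ), whereas 10 of 12 nuclear genes of mitochondrial growth were above both. In cells of 10000 to 25000 UMIs the counts were 1 of 13 below both, under the 20.5% of all genes there, and 10 of 12 above both. The summed handling stress list was at 703 to 786 CPM, against 487 to 614 in LZ and 593 to 682 in DZ, with Hspa1a and Hspa1b at 0.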
